A study of Drosophila melanogaster with 3 samples.

Results

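A set of 8 core cell cycle genes was examined in OSS cells, a stable somatic cell line derived, per the labels, from follicle stem cells of the Drosophila melanogaster ovary. They are the cyclin genes CycD, CycE, CycB and CycB3, the kinase genes Cdk2 and aurB, and fzy and fzr, which encode activators of the anaphase-promoting complex (APC/C). The set was given by name, and all 8 genes had at least 1 probe set of their own, out of 11982 genes named on the array. Where a gene had several probe sets, the one with the highest mean was used. RNA came from cells in exponential growth without added treatment, in medium with serum, insulin, glutathione and fly extract. It was hybridised as biotin-labelled cRNA to 3 Affymetrix arrays of 1 group, so no condition was compared with another. Nothing in the labels says that the 3 samples came from separate cultures, and the line was not compared with follicle cells of the ovary. The p-values therefore reach no further than these 3 samples, whose spread may be technical. For each gene that spread was combined with a spread estimated over all genes.

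Cyclins are the regulatory subunits of cyclin-dependent kinases. Cyclin D with Cdk4 promotes growth and progress through G1, cyclin E with Cdk2 drives entry into S phase, and the B-type cyclins with Cdk1 drive mitosis. Aurora B is the kinase of the chromosomal passenger complex, which corrects faulty attachments of chromosomes to the spindle. The APC/C marks mitotic cyclins and securin for destruction, activated first by Fzy (Cdc20) and later, and in G1, by Fzr (Cdh1). Follicle cells of the ovary first divide by mitosis and later switch to endocycles, rounds of DNA replication without division, a switch that requires Fzr.

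All 8 genes were above background. The deposited values are log2 expression levels, and the background level of 2.49 was set at the 95th percentile of 112 chemosensory (odorant or gustatory) receptor genes by their means, taken as unused in these cells. Each gene was tested against that level with limma across all genes, and called at an adjusted p under 0.05. By this test 47.0% of the 11870 named genes outside the receptor list were above background and 49.6% were below it. The lowest value of the table, 2.39, lies only 0.098 log2 units under the level, so calls below rest on very small SDs. The median of the 8 means was 3.95, against 2.47 over those 11870 genes. At a stricter level 1 log2 unit higher, 5 of the 8 genes passed, against 25.5% of all genes. The genes were chosen with earlier results of these data known, so their count is a description and was not tested against other genes. Probe sets differ in affinity, so the values do not rank the 8 transcripts.

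**Figure D1:**
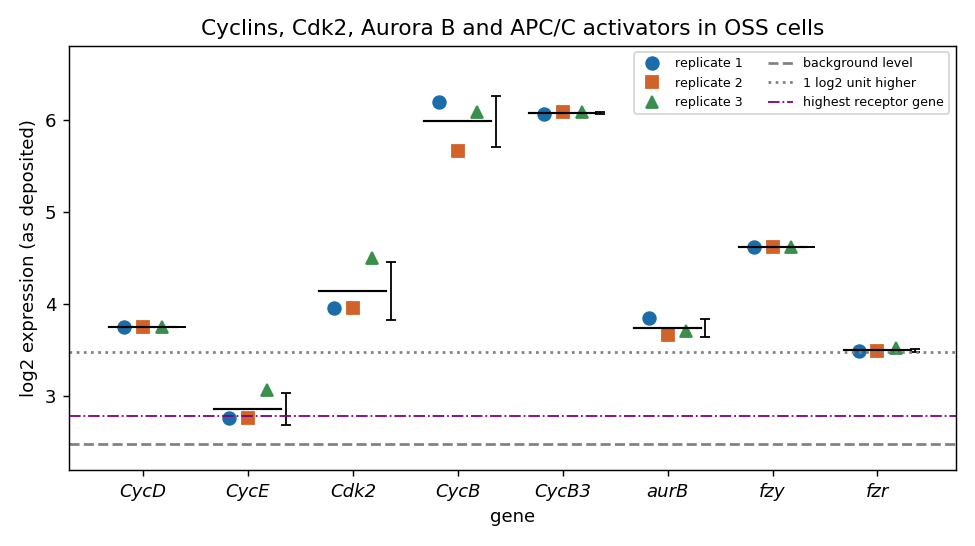
Log2 expression of the 8 genes on each of the 3 arrays, with the mean as a line and the SD (n = 3) as a bar beside it, and lines at the background level of 2.49, at 1 log2 unit higher and at the highest receptor gene (2.79). All points lie over the background level, and 2 of the 3 CycE points lie just under the highest receptor gene.

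The arrays were alike, and several values were identical between them. Across probe sets, Pearson correlations between arrays ran from 0.986 to 0.995, highest for replicates 1 and 2. Of the genes above background, 29.1% had the same deposited value on all 3 arrays and 41.9% had 3 different values. An SD at or near 0 is thus a property of the deposited values and is smaller than the true error of measurement. The very small p-values of CycD, CycB3, fzy and fzr given below rest on such SDs. With a spread of at least 0.178 log2 units they were 0.00093, 0.00012, 0.00025 and 0.0018 (limma, adjusted p). Markers of ovarian somatic cells were above background in 6 of 6 measured genes, with means of 4.23 to 6.90, among them tj at 6.83 ± 0.69 (SD, n = 3). The labels' own marker, Fas III, was not analysed here. All 7 germline markers were below background, with 6 at the lowest value of the table, 2.39, on every array. That value lies only 0.098 log2 units under the level. With the spread of at least 0.178 log2 units, other genes at the same value (cort, plu and Mps1, described below) were not called (limma, adjusted p = 0.56). Of the markers of other cell types, 1 of 5 testis, 2 of 6 hemocyte and 1 of 4 neuronal genes were above background. Over all genes the share was 47.0%. The hemocyte marker Pxn, at 4.43 ± 0.27 (SD, n = 3), lay within the range of the ovarian somatic markers.

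The G1 cyclin and the S phase pair were all above background, CycE by the narrowest margin of the 8. CycD, whose product is the partner of Cdk4, measured 3.752 on replicates 1 and 2 and 3.755 on replicate 3. Its mean was 1.27 log2 units above background (limma, adjusted p = 4.9e-07), with an SD of 0.0021 over values of which 2 were identical. Cdk4 itself measured 4.41 on every array and was above background.

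CycE, the S phase cyclin gene, measured 2.76 on replicates 1 and 2 and 3.07 on replicate 3. Its mean of 2.86 ± 0.17 (SD, n = 3) was 0.38 log2 units above background (limma, adjusted p = 0.033). The highest receptor gene, Gr39a, measured 2.79 on every array, so CycE lay under it on 2 arrays and over it on 1. Without replicate 1 CycE was not called (limma, adjusted p = 0.088), nor was it without replicate 2 (adjusted p = 0.075). Replicates 1 and 2 alone, with their identical values, gave a call (limma, adjusted p = 0.00060). Annotated RNAs of other kinds, a long non-coding and an antisense RNA gene, overlap the CycE gene model in RefSeq's Release 6 table.

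Cdk2, the kinase gene paired with CycE, measured 3.96 on replicates 1 and 2 and 4.50 on replicate 3. Replicate 3 was thus the high array for both genes of the pair. It alone was also the highest array in 1579 of the 3957 genes above background with values not identical on all arrays. Cdk2 averaged 4.14 ± 0.31 (SD, n = 3), which was 1.66 log2 units above background (limma, adjusted p = 0.0041). At the stricter level Cdk2 missed the threshold (limma, adjusted p = 0.064). Its SD was larger than that of 79.1% of the 3957 genes above background with values that were not identical on all arrays. The protein-coding gene CG17267, whose model overlaps that of Cdk2, was below background at 2.39.

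Both mitotic cyclins were well above background and passed at the stricter level. CycB, whose product is a mitotic partner of Cdk1, measured 6.19, 5.67 and 6.08 on replicates 1, 2 and 3. Replicate 2 was the low array. The mean of 5.98 ± 0.28 (SD, n = 3) was 3.49 log2 units above background (limma, adjusted p = 0.00059).

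CycB3, a B-type cyclin gene with a role in anaphase, measured 6.062 on replicate 1 and 6.079 on replicates 2 and 3. It varied by only 0.017 log2 units between arrays, where CycB varied by 0.53. Its mean of 6.07 was 3.59 log2 units above background (limma, adjusted p = 5.4e-07). Both cyclin genes thus had signal far from the background on every array, and CycB alone had a low value on replicate 2.

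The mitotic kinase gene aurB had 3 different values. It measured 3.86, 3.67 and 3.71 on replicates 1, 2 and 3, a mean of 3.74 ± 0.10 (SD, n = 3). This was 1.26 log2 units above background (limma, adjusted p = 0.00058), and aurB also passed at the stricter level (adjusted p = 0.041). Its 3 measured partners in the chromosomal passenger complex were above background too. Borealin, encoded by borr, measured 6.48, 5.89 and 5.96, the survivin-like gene Det measured 5.08, 4.52 and 5.10, and the scaffold gene Incenp measured 4.19, 4.11 and 4.11. Replicate 2 was the lowest array for aurB, borr and Det, and shared the lowest value with replicate 3 for Incenp. It alone was also lowest in 1708 of the 3957 genes above background with values not identical on all arrays.

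Among the APC/C activators, fzr was above background with its only single-gene probe set, while the 3 probe sets of fzy disagreed. The fzr probe set measured 3.49 on replicates 1 and 2 and 3.52 on replicate 3, which was 1.01 log2 units above background (limma, adjusted p = 2.7e-05). At the stricter level fzr lay only 0.012 log2 units over the level and was not called (adjusted p = 0.58). A further probe set annotated to fzr together with another gene measured 2.39 on every array and was not used for the gene.

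The probe set of fzy with the highest mean measured 4.62 on every array, 2.13 log2 units above background (limma, adjusted p = 1.9e-07). The second measured 2.45, 2.40 and 2.40 and the third 2.39, 2.40 and 2.39 on replicates 1, 2 and 3. Both lay under the background level on each array, so the call of fzy rested on 1 of its 3 probe sets. With the lowest probe set of every gene in place of the highest, fzy was below background (limma, adjusted p = 0.0018). With the mean of its probe sets it was 0.67 log2 units above (adjusted p = 1.4e-05). Such disagreement was seen in other genes: of 97 genes with at least 3 probe sets whose highest lay over 1 log2 unit above background, 21 (21.6%) had all their other probe sets under it. In RefSeq's Release 6 table the gene model of fzy overlaps that of cact, the gene of the IkB-like protein Cactus. The gene cact was above background, at 4.45, 3.95 and 5.18 on the 3 arrays, where the high fzy probe set was the same on all of them. Its part in the fzy signal was not tested.

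**Figure D2:**
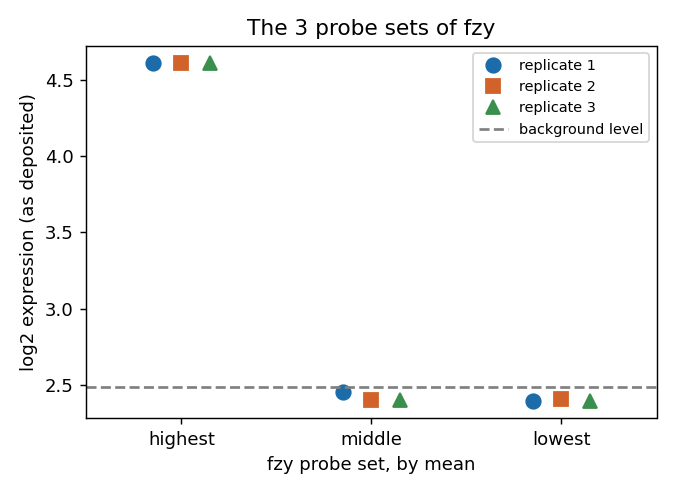
Log2 expression of the 3 probe sets of fzy on each array, ordered by their mean, with the background level of 2.49 as a dashed line. One probe set measured 4.62 on every array, and the others lay between 2.39 and 2.45, under the level.

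The 8 genes differed in which array was high or low. The 3957 genes above background with values not identical on all arrays had a median deviation from their own mean of 0.012 on replicate 1, -0.048 on replicate 2 and 0.011 on replicate 3. Replicate 2 alone held the lowest value in 1708 of them. CycB followed that order with a larger deviation, -0.32 on replicate 2, while aurB deviated by -0.077. Cdk2 deviated by -0.18 on replicates 1 and 2 and by 0.36 on replicate 3, and CycE by -0.10 and 0.20 in the same way. CycD, CycB3 and fzr stayed within 0.022 log2 units of their means on every array, and fzy did not vary.

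Identical pairs of values fell mostly on replicates 1 and 2. Values were the same on replicates 1 and 2 alone for CycD, CycE, Cdk2 and fzr, the pattern of 12.4% of genes above background. In all 4 genes replicate 3 was the higher array. It alone was highest in 1579 of the 3957 genes above, a set not limited to this pattern. The share among genes of this pattern was not counted. These 4 are also the genes whose probe set carries the suffix _s_at, treated here as a mark of shared sequence. The platform annotation gives each of these probe sets to 1 gene. Whether transcripts of other genes add to their signal was not tested. Without probe sets of shared sequence, 4 of the 8 genes could be measured (CycB, CycB3, aurB and fzy), and all 4 of these were above background.

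**Figure D3:**
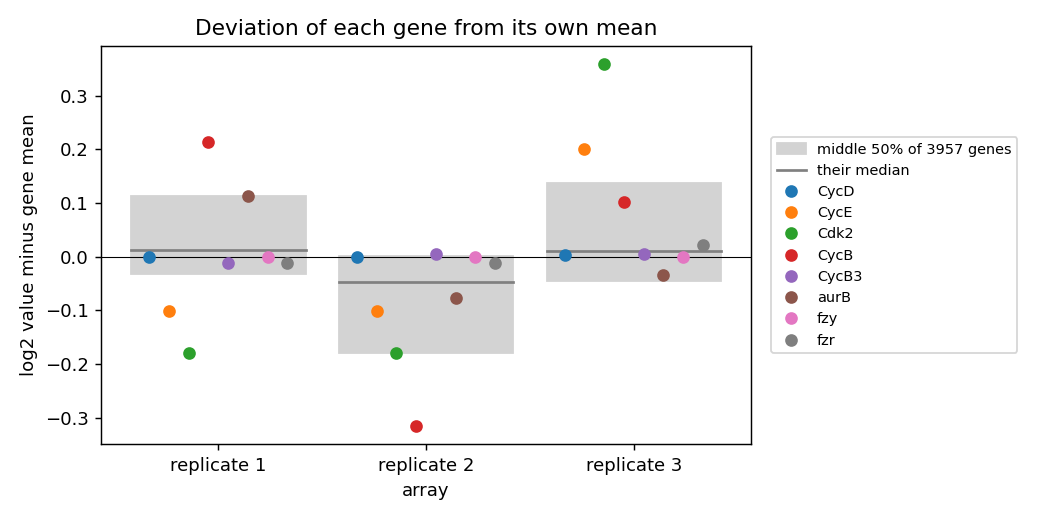
Deviation of each gene from its own mean, in log2 units, on the 3 arrays. Grey boxes span the middle 50% of the 3957 genes above background with values not identical on all arrays, with their median as a line. Cdk2 and CycE lie high on replicate 3, CycB lies low on replicate 2, and the other genes stay close to 0 or within the boxes.

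By likeness of the 3 deviations, measured as Euclidean distance and searched among 60 other cell cycle genes, the nearest gene to Cdk2 was the separase gene Sse (distance 0.031). The nearest to CycE was the spindle checkpoint gene Mad1 (0.038), and the nearest to CycB was Det (0.13). The gene png was nearest to aurB (0.058), rux to fzr (0.015) and mr to CycB3 (0.012). The means of png, rux and mr lay close to background, only 0.027, 0.12 and 0.050 log2 units over the level. CycD had no single nearest gene, since 21 genes, those with identical values on all arrays, tied at a distance of 0.0030. With 3 arrays, and with identical values on several of them, this likeness describes these arrays only.

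The genes that work beside the 8 were mostly above background. Of 75 genes listed in 10 groups, 60 had a single-gene probe set, with 50 above, 7 below and 3 unresolved, and with a median of 3.77. Over all 11870 named genes outside the receptor list, 47.0% were above and the median was 2.47. The groups were listed by hand, so their counts are a description and were not tested against other genes. Of the 60, 29 also passed at the stricter level, against 25.5% of all genes. Calls of genes close to the level were fragile. An alternative set the spread of each gene no smaller than that of genes whose values differed on every array. With it, 42 of the 60 were above, against 4673 of the 11870 genes. Among the genes then no longer called above were CycT, Cdk8, rux, mr, thr and gnu (limma, adjusted p = 0.36 to 0.80). The 7 genes called below (Rbf, Rbf2, Mps1, APC7, cort, fzr2 and plu) were no longer called either (adjusted p = 0.56 to 0.76), while the 8 core genes were all above (adjusted p = 0.00012 to 0.033). With lower background levels Rbf and fzr2 lay over the level. Genes listed but not analysed here include Cdk1, CycA, stg, dap, polo, aurA, BubR1 and E2f1, so the kinase partner of the B-type cyclins is not among the values.

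All 6 other cyclin genes measured were above background, 4 of them also at the stricter level, against 47.0% and 25.5% of all genes. CycK, whose product partners Cdk12 in transcription, measured 7.30, 7.06 and 7.02, and CycC, whose product partners Cdk8 in the Mediator complex, measured 6.25, 6.20 and 6.25. CycY measured 4.79 ± 0.23 (SD, n = 3). CycT, the partner of Cdk9 in transcription elongation, lay lowest in the group at 2.58 on every array, 0.097 log2 units above background and under Gr39a.

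All 9 measured genes of other cyclin-dependent kinases and Cks proteins were above background, against 47.0% of all genes. At the stricter level 6 of them passed, against 25.5%. Eip63E, the kinase gene paired with CycY, measured 7.63, 7.85 and 7.07. The Cks gene Cks30A, whose protein binds Cdk1 in the fly germline and embryo, measured 5.50, 4.99 and 5.79. Cdk7, of the kinase complex that activates other Cdks, measured 5.17 ± 0.052 (SD, n = 3). Cdk8 lay lowest at 2.58 on every array.

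Regulators of the Cdk switches were split. Of 4 measured, 3 were above background, against 47.0% of all genes. Rca1, an inhibitor of the APC/C with Fzr, measured 6.18, 6.13 and 5.92. The gene trbl, whose product promotes destruction of the String phosphatase, measured 6.57, 7.12 and 5.01, a mean of 6.23 ± 1.10 (SD, n = 3), and was not called without replicate 1 (limma, adjusted p = 0.067). The Cdk inhibitor gene rux was 0.12 log2 units above background at 2.61. The meiotic phosphatase gene twe was unresolved, at 2.88, 2.66 and 2.55.

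In the group of G1/S control, 5 of 7 genes were above background and 2 below, against 47.0% and 49.6% of all genes. The high members included parts of the SCF ubiquitin ligase, of which the F-box protein Ago targets cyclin E: Cul1 averaged 6.46 ± 0.10, SkpA 5.90 ± 0.48 and ago 5.06 ± 0.040 (SD, n = 3). The retinoblastoma family genes Rbf and Rbf2, whose products hold back E2F, measured 2.42 and 2.39 on every array and were below background.

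Of 6 genes of the passenger complex and other mitotic kinases, 5 were above background, against 47.0% of all genes. The Greatwall kinase gene, gwl, was unresolved at 2.51, 2.44 and 2.44. In the spindle checkpoint group 7 of 8 genes were above, against 47.0% of all genes. At the stricter level 3 of the 8 passed, against 25.5% of all genes. Bub3 averaged 6.45 ± 0.10, and the genes Zwilch and Zw10, whose products form a kinetochore complex with Rod, averaged 6.44 ± 0.012 and 5.62 ± 0.076 (SD, n = 3). Mad1 measured 2.99, 2.99 and 3.34 and was not called without replicate 1 (limma, adjusted p = 0.055). The checkpoint kinase gene Mps1 lay at the lowest value of the table, 2.39.

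Of 10 measured genes for APC/C subunits and its E2 enzyme, 9 were above background, against 47.0% of all genes. Their median was 3.24, against 2.47. At the stricter level 3 of the 10 passed, the E2 gene vih and the subunit genes shtd and APC10, close to the 25.5% of all genes. The E2 gene vih measured 5.93, 5.49 and 6.07, the large scaffold subunit gene shtd 4.56, 4.52 and 4.73, and APC10 4.08 on every array. Only APC7 was below background, at 2.39, and mr, the gene of the cullin-like subunit, was 0.050 log2 units above it at 2.54. All 5 genes of APC/C substrates and separase were above background, 2 of them also at the stricter level, against 47.0% and 25.5% of all genes. The anillin gene scra averaged 5.83 ± 0.0094 and the securin gene pim 5.27 ± 0.16 (SD, n = 3). The geminin gene gem averaged 4.91 ± 0.69 and Sse 3.52 ± 0.29 (SD, n = 3), neither called at the stricter level. The fifth, thr, whose product acts with separase, measured 2.51 on every array, 0.024 log2 units above background.

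**Figure D4:**
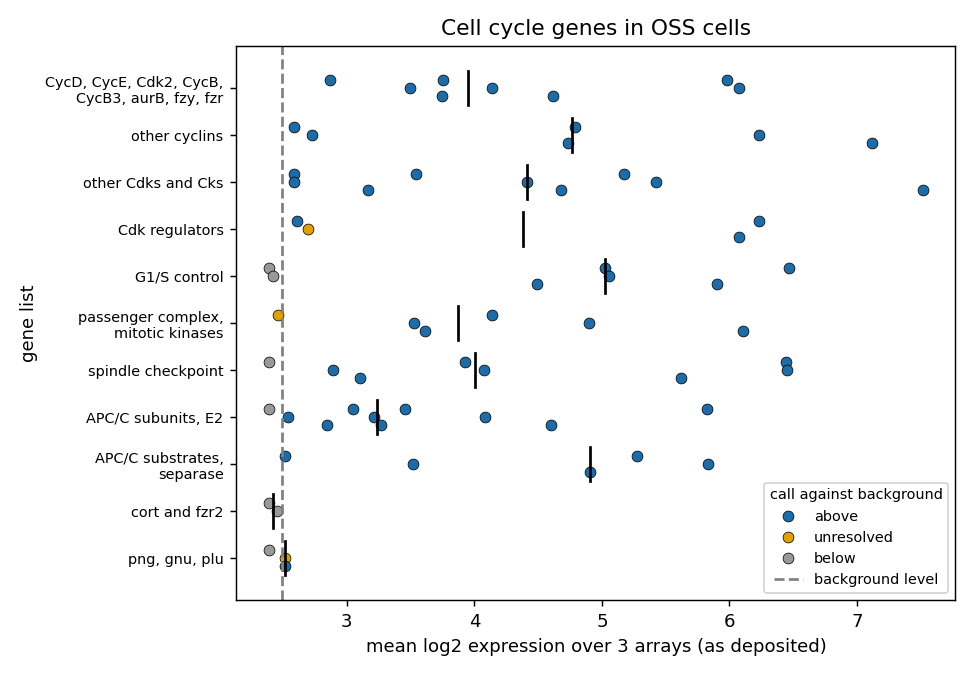
Mean log2 expression over the 3 arrays of the 8 genes (top row) and of 60 other cell cycle genes by group. Each point is a gene, coloured by its call against background, the black line is the group's median, and the dashed line is the background level of 2.49. All 8 genes of the top row are above it, while cort and fzr2 are both below.

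The relatives of fzy and fzr with germline roles were both below background, as were 49.6% of all genes. The gene cort, whose product activates the APC/C in female meiosis, lay at 2.39 on every array. The testis-expressed gene fzr2 measured 2.45 on every array, 0.037 log2 units under the level. Of the PAN GU kinase genes, which promote translation of cyclin B in eggs, plu was below background at 2.39, png was unresolved at 2.59, 2.48 and 2.48, and gnu was above it by 0.027 log2 units at 2.51. The call of fzr2 turned with a lower level: with the 90th percentile of the receptor genes it was above by 0.029 log2 units (limma, adjusted p = 0.00071).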

How the data were processed

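The authors deposited 1 table of log2 expression values for 18952 probe sets on 3 arrays. Log base 2 was taken from the range, 2.39 to 14.75. Per the labels, scanner files entered custom scripts; background correction and summary method are not given in the sources used here. Values were used as deposited.

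Of 13647 single-gene probe sets in the platform annotation, the highest by mean stood for each of 11982 genes. All 8 genes matched RefSeq's Release 6 table by identifier. An intercept-only limma 3.58.1 fit in R 4.3.3 (lmFit, eBayes) tested each gene against the level, one-sided each way, with Benjamini-Hochberg adjustment over all genes. It was tested on simulated data. SDs of identical values were set to 0. The moderated prior SD was then 0.0048 log2 units; an alternative chosen after seeing the data used at least 0.178.

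The 8 genes and the lists were chosen with earlier results of these data known. Named were, per list, the 3 highest genes, the lowest and those not above background (every gene in lists of 5 or fewer), with direct partners and the genes nearest by deviation; Gr39a, cact and CG17267 were chosen after their values were seen.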

Additional observations from a re-analysis of the deposited data

How the results depend on the processing

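No paired analysis was possible because there is only 1 group. Background correction from scanner values and a slide block were not run, because the table holds neither. Of 940 values over 53 results and 18 alternatives, 865 stayed on the same side of the level with the same call, or, where counts, within 1.5 times. The number of arrays and the identical values limit the precision.

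The 8 genes were all above background under 11 alternatives. One of these was a spread of at least 0.178 log2 units, chosen after the data were seen (limma, adjusted p = 0.00012 to 0.033), with 4673 of all genes and 42 of the 60 other cell cycle genes above. Of the 8, 7 were above without replicate 1 and without replicate 2, where CycE was not called; leaving out 1 array, CycE lay 0.28 to 0.45 log2 units above the level. At the 99th percentile CycE lay 0.26 above and with the highest receptor gene as level 0.075 above, neither called (limma, adjusted p = 0.084 and 0.59). With the lowest probe sets fzy lay at -0.053, and with the mean of probe sets at 0.67, against 2.13 as reported. Without shared-sequence probe sets 4 of 4 measured genes were above. At the level 1 log2 unit higher, 3028 genes, 5 of the 8 and 29 of the 60 were above; Cdk2 lay at 0.66 and fzr at 0.012, not called, and CycE at -0.62.

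Other genes that changed sign lay near the level, apart from Mad1, which was 0.62 log2 units above it. At 1 log2 unit higher the selected genes that changed sign were CycT (-0.90), Cdk8 (-0.91), twe (-0.79), rux (-0.88), thr (-0.98), gnu (-0.97), png (-0.97), mr (-0.95) and Mad1 (-0.38). With the highest receptor gene they were CycT and Cdk8 (both -0.21), twe (-0.097), rux (-0.18), thr, gnu and png (all -0.28) and mr (-0.25). At the 99th percentile they were CycT (-0.021), Cdk8 (-0.023), thr (-0.094), gnu and png (both -0.091) and mr (-0.068). With the 90th percentile, odorant receptors alone and bacterial controls, Rbf lay at 0.0029, 0.0011 and 0.011, gwl at 0.042, 0.041 and 0.050, and fzr2 at 0.029, 0.027 and 0.037. With the lowest probe sets gwl lay at 0.016 and fzr2 at 0.0027. Leaving out 1 array, gwl ranged from -0.046 to 0.0082 and png from -0.0099 to 0.066. Where only the level was moved, a gene lying between the old and the new level changes sign by construction. Why genes changed sign under the other alternatives was not tested.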
